A study of Mus musculus with 6 samples.

Results

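Crtam and the 4 cell adhesion molecule genes Cadm1 to Cadm4 encode nectin-like proteins, and their messenger RNA was followed in cultured mouse cerebellar granule neurons with lowered Kdm6b. The 5 genes were chosen by name from the 23366 genes of the count table. Crtam was included because it was higher in the knockdown libraries of this same comparison, so its difference is given as a description without a test. The 4 Cadm genes were included by family. Stranded mRNA sequencing was done on 6 libraries of granule neurons from C57BL/6 mice at postnatal day 7, isolated on a Percoll gradient from the cerebella of a litter. Control cultures (n = 3) were infected on day 1 in vitro with lentivirus made from the empty pLKO.1 vector, and knockdown cultures (n = 3) with the same vector carrying a hairpin against Kdm6b, a demethylase of lysine 27 on histone H3. The labels give 1 hairpin sequence, although their protocol speaks of several, and the control carried no hairpin at all. BDNF was added to some cultures, and the labels do not say which. The replicates are numbered 1 to 3 in each arm, and nothing says that separate cultures gave rise to them. P-values therefore measure the spread between these libraries, which may be technical.

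Nectin-like proteins are membrane proteins with immunoglobulin-like domains outside the cell and a short tail inside it. They hold cells together by binding either a copy of themselves or another member on the facing cell. Cadm1, also known as SynCAM or Tslc1, promotes synapse formation and binds Crtam across cells. Cadm3 and Cadm4 bind each other where axons meet myelinating glia, and Cadm2 is expressed on neurons and axons. Crtam is best known from activated cytotoxic T cells and natural killer cells, where it binds Cadm1, and its tail binds the polarity scaffold Scrib.

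The ends of the coding sequences are shown because they encode the last part of the tail. The tail as a whole docks onto the partner proteins described further on. Each line gives the last 30 coding bases before the stop codon of the principal GENCODE M21 transcript, with the last 12 bases, the 4 codons of the PDZ-binding end, in capitals.
Crtam: aagcacagccgtgtcccgGAGAGTATTGTG
Cadm1: aactccgaagaaaagaaaGAGTACTTCATC
Cadm2: aatgccgaagagaaaaaaGAGTATTTCATT
Cadm3: ggcggggatgacaagaagGAATATTTCATC
Cadm4: ggacacaaacggaaagaaGAATTCTTCATT
The annotated Cadm1 transcripts with a stop codon have 3 different coding ends, of which that of the principal transcript is shown; each other member has 1. Among the 4 Cadm genes, 9 or 10 of the last 12 bases were identical between any pair, against 4 to 6 between Crtam and a Cadm gene. Over all 30 bases, Cadm1 and Cadm2 shared 24, the most of any pair. The coding sequences run to 392 codons in Crtam, 456 in Cadm1, 404 in Cadm2, 396 in Cadm3 and 388 in Cadm4. Cadm1 lies on chromosome 9 as Crtam does, Cadm2 on chromosome 16, Cadm3 on chromosome 1 and Cadm4 on chromosome 7. None of the stretches of 50 bases in the annotated transcripts of 1 member occurred in those of another, so reads of 50 bases could be told apart between members. Crtam, Cadm1 and Cadm4 share no exonic base with another annotated gene. Cadm2 overlaps the antisense gene 1700010K23Rik by 256 bases, and that gene had 1 to 6 counts per library.

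Gene counts per library ranged from 50326298 to 88214069. Kdm6b stood at 257, 146 and 170 CPM (counts scaled to library size, with TMM factors) in control replicates 1 to 3 and at 88.8, 63.3 and 79.8 CPM in knockdown replicates 1 to 3. Summed levels of 12 granule neuron markers ranged from 4607 to 6524 CPM in controls and from 4916 to 7328 CPM in knockdowns. Summed levels of 12 pericyte and fibroblast markers ranged from 13175 to 26395 CPM in controls and from 4360 to 12022 CPM in knockdowns, without overlap. The summed RNA of these marker genes was thus abundant in the cultures, and lower in the knockdown libraries. Most of the sum came from Col1a1, Col1a2, Col3a1 and Fn1. Of the 12 markers, 6 were called lower and 0 higher in edgeR with the replicate number as a block. Over all genes tested the shares were 5.40% and 2.58%. Rgs5 was at 5.05, 9.58 and 6.31 CPM in control replicates 1 to 3 and at 4.27, 21.3 and 7.93 CPM in knockdown replicates 1 to 3. In these bulk libraries fewer cells of a type and less RNA per cell cannot be told apart. The part of pericytes and fibroblasts in the results below was not tested.

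Per kilobase of annotated exon, which allows levels of different genes to be compared, the 5 genes fell into 3 tiers. Cadm4 stood at 167 ± 30.6 CPM per kb (SD, n = 3) in controls and 199 ± 12.8 in knockdowns. Cadm3 was at 160 ± 37.2 CPM per kb (SD, n = 3) in controls and 125 ± 47.0 in knockdowns. The level per kb of both lay above that of over 98% of tested genes (98.8% for Cadm3 and 99.2% for Cadm4). Cadm1 (15.6 ± 5.94 CPM per kb in controls, SD, n = 3) and Cadm2 (13.7 ± 3.51) formed the middle tier, above 75.2% and 76.6% of tested genes. Crtam was lowest in every library, at 0.647 ± 0.312 CPM per kb (SD, n = 3) in controls and 2.52 ± 2.21 in knockdowns. The difference within the upper tier and that within the middle tier were smaller than the spread between control replicates. With the longest annotated transcript as the length, the control means of Cadm3 (225 CPM per kb) and Cadm1 (34.1 CPM per kb) were higher and Cadm3 stood above Cadm4.

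Crtam was higher in the knockdown library of each replicate number, and knockdown replicate 2 stood far above the rest. It had 268, 235 and 82 counts in control replicates 1 to 3 and 721, 1393 and 330 in knockdown replicates 1 to 3. On the scaled level this is 3.69, 4.70 and 1.56 CPM in the control replicates, against 8.06, 25.9 and 4.83 CPM in the knockdown replicates, with means of 3.32 ± 1.6 and 12.9 ± 11.3 CPM (SD, n = 3). The groups did not overlap, by a narrow margin: the lowest knockdown value was 1.03 times the highest control value. The 95% Poisson counting intervals of these libraries, 4.32 to 5.38 CPM for knockdown replicate 3 and 4.12 to 5.34 CPM for control replicate 2, overlapped. Those intervals cover counting error only. Of all genes tested, 16.7% had groups that did not overlap, and 9.21% were of the kind that lay higher in the knockdown.

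Within pairs of the same replicate number, Crtam was 2.17-fold, 5.47-fold and 3.05-fold higher in pairs 1 to 3 (log2 CPM with a prior count of 2). Both control and knockdown were lowest in replicate 3 and highest in replicate 2. The fitted log2 fold change was 1.96 in the edgeR fit without the replicate number and 1.74 with it as a block. These values rank 35th and 55th from the highest among 15731 genes tested. Without knockdown replicate 2 the log2 fold change in the fit without the block was 0.95. Across all 6 libraries the SD of log2 CPM of Crtam was 1.33, higher than that of 96.4% of tested genes, and among the controls alone it was 0.83, higher than that of 89.2%.

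**Figure D1:**
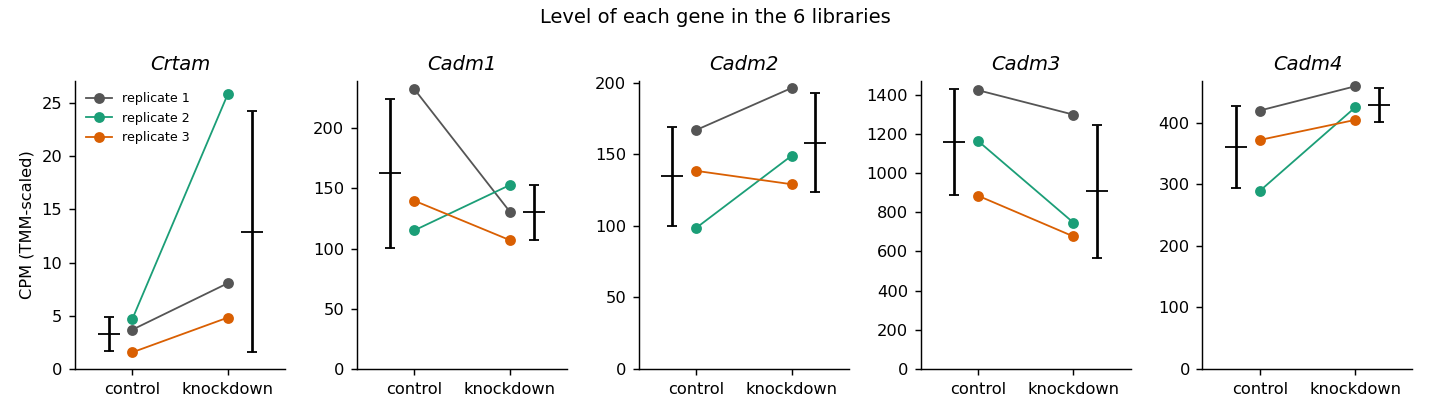
Level of Crtam and Cadm1 to Cadm4 in each of the 6 libraries, in TMM-scaled CPM on linear axes that start at 0. Coloured lines connect libraries that share a replicate number, and black marks give each group's mean and SD (n = 3). Crtam was higher in the knockdown of all 3 pairs with knockdown replicate 2 at 25.9 CPM, while the groups of each Cadm gene overlapped.

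Since Crtam is a gene of T and natural killer cells, markers of those cells were read in the same libraries. The table holds 15 such markers. Cd3g, Nkg7, Ncr1, Gzmb and Ifng were at 0 counts in all 6 libraries, and 11 had at most 10 counts in any library. Cd3e, a subunit of the T cell receptor complex, had 0 counts in the controls and 1, 0 and 3 in the knockdowns, and the coreceptor gene Cd8a had 1 to 8 counts. The summed level of the list was 1.44 to 3.95 CPM in controls and 2.06 to 6.96 CPM in knockdowns, most of it from the kinase gene Lck. In knockdown replicate 2, where Crtam was highest, the sum was 2.06 CPM, the lowest of the knockdown libraries. The summed level of 12 Purkinje cell markers was 103 to 216 CPM in controls and 99.2 to 196 CPM in knockdowns, and the Purkinje gene Pcp2 had 0 to 2 counts per library.

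The hairpin was compared with the members because a short match in a 3′ UTR can be enough for an unintended target. The hairpin strand in the labels, its reverse complement as the guide with bases 2 to 8 (the seed) in capitals, and the 1 match to that seed in a member, given with 10 bases on either side, are these.
Kdm6b hairpin: gttcgttacaagtgagaactc
Guide: gAGTTCTCacttgtaacgaac
Crtam 3′ UTR: ctcagagctgGAGAACTctgctaagtc
The seed site GAGAACT was searched on the transcript strand, taking for every gene its longest 3′ UTR in GENCODE M21. It occurred once in Crtam, at bases 226 to 232 of the 3′ UTR, and in none of the Cadm genes. Of 14028 tested genes with an annotated 3′ UTR, 14.2% held it. Crtam RNA was higher, not lower, in the knockdown libraries, and any effect of the site was not tested. The longest run of the 21 hairpin bases found in any annotated transcript was 9 bases in Crtam, 11 in Cadm1, 8 in Cadm2, 7 in Cadm3 and 6 in Cadm4.

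None of the 4 Cadm genes passed the test between knockdown and control (edgeR quasi-likelihood test, adjusted p from 0.620 to 0.759 by Benjamini and Hochberg). The count was 0 of 4 also at an unadjusted p under 0.05, with DESeq2 and with limma-voom. Over all genes tested, 0.00636% passed the adjusted edgeR test, 10.6% an unadjusted p of 0.05 and 3.61% the adjusted DESeq2 test. With the replicate number as a block the adjusted edgeR count was again 0 of 4, against 7.98% of all genes tested, and 1 of 4, Cadm3, had an unadjusted p under 0.05, against 34.1% of all genes tested. DESeq2 with the block called 1 of 4, Cadm3, and 21.9% of all genes tested. Kdm6b, the targeted gene, did not pass without the block either (log2 fold change −1.31, SE 0.25, edgeR adjusted p = 0.216). With the block it passed (−1.28, SE 0.11, edgeR adjusted p = 0.0282). The test without the block thus missed a fall of that size, and a lack of Cadm calls does not show unchanged levels.

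Cadm1, the binding partner of Crtam, was at 233, 115 and 140 CPM in control replicates 1 to 3. Knockdown replicates 1 to 3 had 131, 153 and 107 CPM. Control replicate 1 stood above the other 5 libraries, which overlapped, and the direction differed between pairs. The log2 fold change was −0.32 (SE 0.29, 95% interval −1.02 to 0.38, edgeR adjusted p = 0.715). Without control replicate 1 it was 0.03. Per kilobase, Cadm1 was 31.0, 12.0 and 44.0 times the level of Crtam in control replicates 1 to 3 and 7.98, 2.90 and 10.9 times in knockdown replicates 1 to 3. Every knockdown library had a lower ratio than every control library, and since Crtam was chosen on this comparison the ratio is a description. The size of the ratio also depends on the length used. With the longest annotated transcript as the length, the control mean of Cadm1 was 34.1 instead of 15.6 CPM per kb.

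Cadm2 was at 167, 98.6 and 139 CPM in control replicates 1 to 3, against 196, 149 and 129 CPM in the knockdown replicates. It was higher in the knockdown of pairs 1 and 2 and lower in pair 3, and the groups overlapped. The log2 fold change was 0.23 (SE 0.24, 95% interval −0.36 to 0.82, edgeR adjusted p = 0.759).

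Cadm3, the most counted member, was at 1423, 1164 and 884 CPM in control replicates 1 to 3, against 1298, 747 and 677 CPM in the knockdown replicates. It was lower in the knockdown of all 3 pairs (log2 differences of −0.13, −0.64 and −0.39), as 28.6% of tested genes were, while the groups overlapped because replicate 1 was high in both arms. The log2 fold change was −0.35 (SE 0.32, 95% interval −1.12 to 0.42, edgeR adjusted p = 0.717) without the block. With the block it was −0.39 (SE 0.13, 95% interval −0.72 to −0.05, edgeR adjusted p = 0.115), and DESeq2 with the block gave −0.40 (DESeq2 adjusted p = 0.0154). The Cadm3 exons share 361 bases with Ackr1, the atypical chemokine receptor gene next to it on the same strand, which the table lists as Darc. Darc had 11.8% to 17.3% as many counts as Cadm3 in every library and was also lower in all 3 pairs (log2 fold change −0.33, SE 0.35, edgeR adjusted p = 0.759). How reads were divided between these neighbours was not tested, so the level of Cadm3 is uncertain.

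Cadm4 was at 419, 289 and 372 CPM in control replicates 1 to 3, against 459, 425 and 404 CPM in the knockdown replicates. It was higher in the knockdown of all 3 pairs (log2 differences of 0.13, 0.56 and 0.12), as 31.7% of tested genes were. The groups overlapped, since control replicate 1 exceeded knockdown replicate 3. The log2 fold change was 0.25 (SE 0.17, 95% interval −0.16 to 0.67, edgeR adjusted p = 0.620) without and 0.27 (SE 0.12, edgeR adjusted p = 0.180) with the block.

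**Figure D2:**
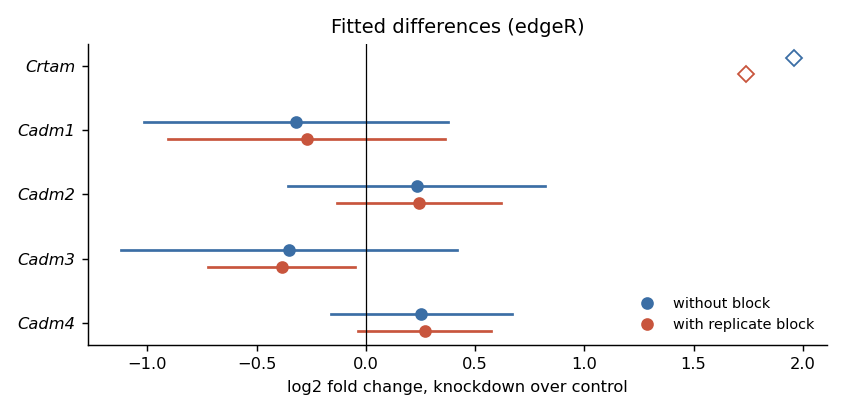
Fitted log2 fold change, knockdown against control, of each gene in edgeR without (blue) and with (red) the replicate number as a block, with bars for the 95% intervals of the Cadm genes. The interval of Cadm3 with the block, −0.72 to −0.05, is the 1 that does not reach 0, and Crtam (open diamonds, chosen on this comparison and shown without interval) lies at 1.96 and 1.74.

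The Cadm genes differed in how they varied with one another. Gene-centred log2 CPM profiles of Cadm2 and Cadm4 over the 6 libraries differed by a root mean square of 0.14, the smallest value of any pair of members. The other 5 pairs of Cadm genes differed by 0.34 to 0.46, and Crtam differed from the Cadm genes by 1.16 to 1.36. The summed level of the 4 Cadm genes per kilobase was 430, 315 and 322 CPM per kb in control replicates 1 to 3 and 424, 329 and 304 CPM per kb in knockdown replicates 1 to 3, with replicate 1 highest in both arms. Cadm4 made up 45.2%, 42.4% and 53.5% of that sum in controls and 50.1%, 59.7% and 61.6% in knockdowns. Cadm3 made up 45.7%, 50.9% and 37.9% in controls and 42.2%, 31.3% and 30.7% in knockdowns. These shares depend on the length used. With the longest annotated transcript as the length, the control mean of Cadm3 was 225 CPM per kb, above that of Cadm4 at 167 CPM per kb.

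The ratio of Cadm3 to Cadm4 counts, which needs no scaling between libraries, was 3.39, 4.03 and 2.38 in control replicates 1 to 3 and 2.83, 1.76 and 1.67 in knockdown replicates 1 to 3. It was lower in the knockdown of all 3 pairs, by log2 differences of −0.26, −1.20 and −0.51, and the groups overlapped. The ratio was picked after the values were seen and is given without a test.

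**Figure D3:**
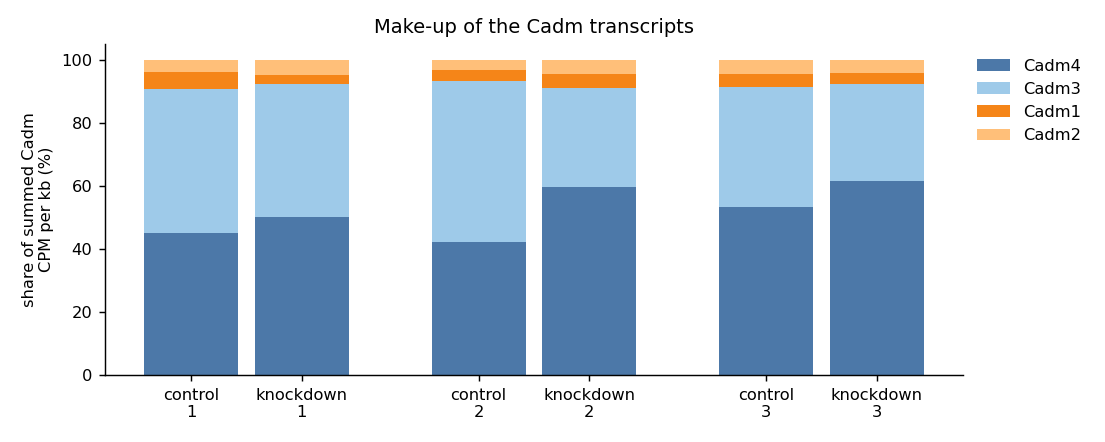
Share of each Cadm gene in the summed Cadm level per kilobase of exon, in percent, for the control and knockdown library of each replicate number. Cadm4 takes 45.2%, 42.4% and 53.5% of the bar in controls and 50.1%, 59.7% and 61.6% in knockdowns, and Cadm1 and Cadm2 are the thin upper bands. The shares depend on the length taken for each gene, here the union of all its exons.

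The genes whose profile over the 6 libraries was closest to that of each member were found among the 11780 other genes that averaged 5 CPM or more. For Crtam these were the hyaluronan synthase Has3, the NOD-like receptor Nlrc5, the G protein signalling regulator Rgs4, the transporter Slc37a1 and Klhdc7a. Their root mean square differences from Crtam were 0.59 to 0.63 on the log2 scale, against 1.22 for Crtam about its own mean. Has3 was at 4.47, 3.22 and 3.52 CPM in the control replicates, against 10.8, 25.03 and 9.95 CPM in the knockdown replicates. Knockdown replicate 2 was the highest library for all 5 genes, a trait favoured by choosing them for likeness to Crtam. The closest genes to the Cadm members differed from them by less, but the Cadm genes also varied less. About their own means Cadm1 to Cadm4 had 0.36, 0.31, 0.40 and 0.21. Their closest genes were Purb and Rasgef1b for Cadm1 (0.14 and 0.15), Ank3 and Pkp4 for Cadm2 (0.06 each), Lzts1 and Ablim3 for Cadm3 (0.10 and 0.11) and Tdp2 and Slc25a40 for Cadm4 (0.03 and 0.05). With 6 libraries and 11780 genes such matches describe these libraries only.

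**Figure D4:**
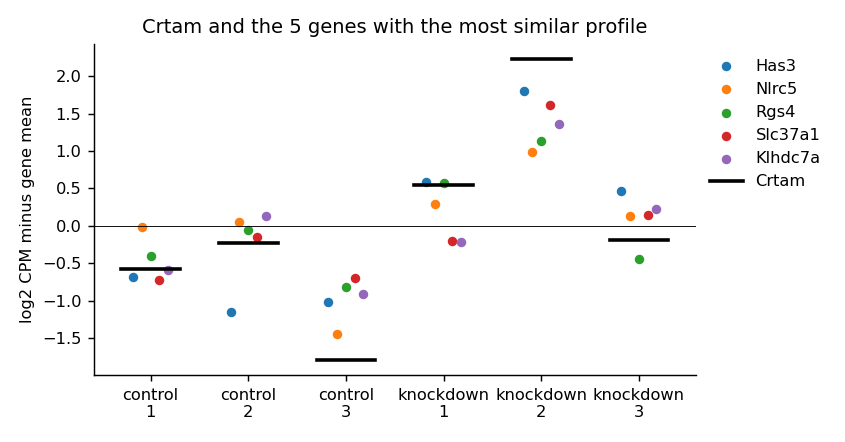
Log2 CPM minus the mean of each gene over the 6 libraries, for Crtam (black bars) and the 5 genes with the smallest root mean square difference from it (coloured points). All 6 genes were highest in knockdown replicate 2, a trait favoured by choosing the 5 for likeness to Crtam. The points scatter around Crtam with root mean square differences of 0.59 to 0.63.

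The nectins are the related adhesion proteins of adherens junctions, tied to actin by afadin. Of 7 tested genes among nectins, their receptors and afadin, 0 passed the edgeR test over all genes with or without the block, and the median log2 fold change was −0.03 against 0.02 over all genes tested. At an unadjusted p under 0.05 the edgeR count without the block was 1 of 7, against 10.6% of all genes tested, and limma-voom called 0. The smallest p was that of Nectin2 (listed as Pvrl2), at 55.05 ± 8.14 CPM in controls and 37.2 ± 2.18 CPM in knockdowns (SD, n = 3). Its log2 fold change was −0.56 (SE 0.14, edgeR adjusted p = 0.309), its groups did not overlap (7.44% of tested genes lay lower in this way), and DESeq2 without the block called it (log2 fold change −0.58, DESeq2 adjusted p = 0.0270). Nectin3, whose protein pairs with Nectin1 at synapses, was higher in all 3 pairs, as 31.7% of tested genes were. Its log2 differences were 0.25, 1.17 and 0.10 in pairs 1 to 3. It was at 139 ± 34.8 CPM in controls and 197 ± 44.9 CPM in knockdowns (SD, n = 3) and did not pass (0.50, SE 0.25, edgeR adjusted p = 0.526). With the block and without replicate 2 its log2 fold change was 0.16. Pvr, the remaining nectin-like gene, was at 17.3 ± 9.47 and 17.03 ± 7.95 CPM (SD, n = 3). Cd226 and Cd96, lymphocyte receptors of nectins and Pvr, were too low to test.

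In the list of genes for scaffolds and other cytoplasmic partners of the Cadm tail, RNA of 5 was called lower with the replicate number in the model. Of 21 tested members of this list 0 passed without the block in edgeR, DESeq2 or limma-voom. At an unadjusted p under 0.05 in edgeR without the block 2 were lower, where 10.6% of all genes tested passed in either direction. With the block 5 fell and 0 rose in edgeR, where 5.40% of all genes tested fell and 2.58% rose. The list's median log2 fold change was −0.03 with and without the block, against 0.02 over all genes tested. The 5 were Pals2 (listed as Mpp6), Dlg1, Farp1, Epb41l2 (listed as Epb4.1l2) and Mpdz. Pals2, a membrane-associated guanylate kinase, was at 89.0 ± 57.3 CPM in controls and 49.02 ± 41.3 CPM in knockdowns (SD, n = 3; log2 fold change −0.99, SE 0.12, edgeR adjusted p = 0.0299 with the block). Dlg1, a synaptic and junctional scaffold, went from 101 ± 24.1 to 54.6 ± 19.3 CPM (SD, n = 3; −0.93, SE 0.11, edgeR adjusted p = 0.0282 with the block) and its groups did not overlap. In this list 2 of 21 genes lay lower without overlap, against 7.44% of all genes tested.

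Farp1, which acts with Cadm1 in dendrites, fell by 0.75 on the log2 scale (SE 0.09) with the block. Epb41l2, a protein 4.1 that ties membrane proteins to spectrin and actin, fell by 0.69 (SE 0.10), and the multiple PDZ protein gene Mpdz fell by 0.56 (SE 0.09). Without replicate 1 or without replicate 2 the count with the block was 0 of 21, where the same fits called 0 of 15639 and 53 of 15987 genes. The log2 fold change of Dlg1 in those fits was −0.81 and −0.96, and that of Pals2 was −0.95 and −0.89. The neuronal protein 4.1 genes Epb41l1 (log2 fold change 0.18) and Epb41l3 (0.06) and the Crtam partner Scrib (−0.03) did not pass with the block. These 3 were picked after their values were seen. The summed pericyte and fibroblast markers were lower in the same libraries. The summed astrocyte and Bergmann glia markers were at 1381 to 3429 CPM in controls and 904 to 3625 CPM in knockdowns. Both stand beside these calls, and their part was not tested.

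Of 9 genes for the proteases that shed Cadm proteins and the enzymes that add polysialic acid, 0 passed with edgeR, with or without the block, or at an unadjusted p under 0.05 without it. Over all genes tested 10.6% had such an unadjusted p. The count was also 0 with DESeq2 and limma-voom without the block. The median log2 fold change was −0.06. Psenen, a subunit of gamma-secretase, had the smallest p (21.2 ± 0.234 and 25.5 ± 1.63 CPM, SD, n = 3; 0.26, SE 0.11, edgeR adjusted p = 0.493). Its exons overlap genes on the opposite strand, as do those of Nectin2, and whether the counting used the strand is unknown here, so both levels are uncertain. The sheddase gene Adam10 was at 281 ± 16.8 and 267 ± 21.5 CPM (SD, n = 3).

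**Figure D5:**
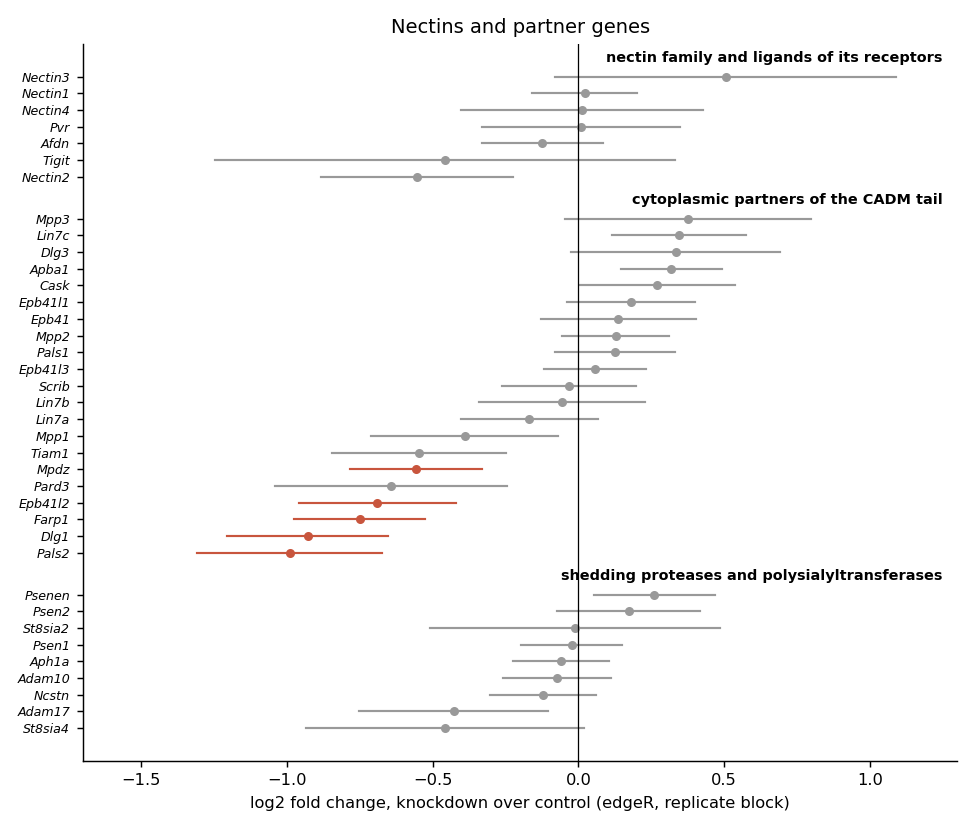
Log2 fold change, knockdown against control, with 95% intervals (edgeR with the replicate block) for the tested genes of the 3 partner lists. The 5 red genes, from Mpdz at −0.56 to Pals2 at −0.99, lay under an adjusted p of 0.05, and all belong to the list of scaffolds of the Cadm tail.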

How the data were processed

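The authors deposited 1 table of raw, whole-number read counts per gene for all 6 libraries. The submitters' processing notes name build mm9 and the tools Trimmomatic, TopHat2, HTSeq, edgeR and DESeq2. The annotation, strand setting and versions are not stated there. Columns were matched to samples by description. Tallies that name no gene (reads outside genes 12.1% to 15.0% of counts, ambiguous 0.406% to 0.509%, not unique 16.0% to 19.3%) were left out of library sizes. No library was a copy of another (chi-square per degree of freedom within groups 174 to 381).

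Of 23366 genes, 15731 passed filterByExpr (minimum count 10, minimum total 15). edgeR 4.0.16 in R 4.3.3 was run with TMM factors and the quasi-likelihood F test, tested on simulated data, with Benjamini-Hochberg adjustment over all genes tested at 0.05. The main fit had no replicate term. Standard errors were taken as |log2 fold change| divided by the root of F, and 95% intervals use the t distribution of the fit. Deviations from group means correlated at 0.772, 0.709 and 0.701 between libraries of the same number and at −0.532 to −0.135 otherwise, in part because deviations sum to 0 within a group. The pairing comes from these data, and the blocked fit is given where it changes a call. With 3 libraries against 3, the smallest p of an exact permutation test is 0.1.

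Lengths, exon overlaps and sequences come from GENCODE M21 (GRCm38), matched by gene name (93.8% of genes tested), and no coordinates were carried between builds. Length is the union of all exons. The members and gene lists were chosen with earlier results of these data known. Named genes were the 5 members, partner genes called with or without the block or else the smallest p of a list, and the closest profiles (5 for Crtam, 2 per Cadm gene). Nectin3, Pvr, Darc, Adam10 and individual cell markers were picked after their values were seen. The alternatives tried were upper-quartile and RLE factors, library totals, all genes with a count, a floor of 5 CPM on the mean, DESeq2 1.42.0, limma-voom (limma 3.58.1), the replicate block alone and with RLE factors, library totals, DESeq2 or voom, leaving out each library or pair, and the longest transcript as length.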

Additional observations from a re-analysis of the deposited data

How the results depend on the processing

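The Crtam log2 fold change was positive under all 21 alternatives run, from 0.95 without knockdown replicate 2 to 2.35 without knockdown replicate 3, and with the replicate block it was 1.74 (1.35 to 2.07 leaving out a pair). Crtam groups stayed apart under RLE factors, upper-quartile factors and library totals, a check chosen after seeing the data, with the lowest knockdown at 1.01 to 1.10 times the highest control. The Cadm1 log2 fold change turned positive without control replicate 1 (0.030, range −0.52 to 0.030 leaving out a library) and, with the block, without replicate 1 (0.012). Cadm2, Cadm3 and Cadm4 kept their direction in the alternatives run. The number of Cadm genes called was 0 except for 1 (Cadm3) in DESeq2 with the replicate block, and 0 leaving out any library. The nectin list had 1 call (Nectin2) in DESeq2 without and with the replicate block. Over all 15731 genes tested, DESeq2 called 568 without the block and 3440 with it. The scaffold list had 5 calls with the replicate block alone. With the block it had 5 with RLE factors and 6 with library totals (Lin7c and Apba1 higher, Mpdz not called). It had 10 with DESeq2 and 5 with limma-voom, each with the block. These fits called 1256, 1342, 1276, 3440 and 1394 of all 15731 genes tested, in that order. When a pair was left out the list had 0 to 5 calls, against 0, 53 and 1272 genes in all without replicates 1, 2 and 3. The list of proteases and polysialyltransferases had 1 call (Adam17, lower) in DESeq2 with the block and 0 to 1 when a pair was left out. The counts over all genes in those fits are the ones given for the scaffold list. The longest transcript as length moved the control level of Cadm1 to 34.1 and of Cadm3 to 225 CPM per kb. The replicate block changed no call of a Cadm or nectin gene in edgeR. Crtam had 82 to 1393 counts per library, which limits its precision more than that of the Cadm genes.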
